A study of Mus musculus with 6 samples.

Results

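The genes described here encode 9 non-claudin proteins of the epithelial tight junction. They are occludin (Ocln), tricellulin (Marveld2), Marveld3, junctional adhesion molecule A (F11r), the zonula occludens proteins ZO-1 (Tjp1) and ZO-3 (Tjp3), cingulin (Cgn), paracingulin (Cgnl1) and the polarity protein Par3 (Pard3). They were taken by name from a deposited table of estimated counts with 54418 gene rows, and all 9 were found and expressed enough to be tested. RNA was sequenced from mouse AKP organoids, self-organising epithelial cultures. The labels do not spell out what AKP stands for or which alleles it covers. The 2 groups were 3 libraries of AKP organoids with the genotype label Control and 3 with the label GATA6KO. The labels state neither what the Control organoids carried nor the lesion in Gata6, and they do not say whether the replicates were separate clones, cultures or animals. The p-values therefore rest on the spread between these libraries alone, and that spread may be technical.

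Tight junctions seal the space between neighbouring epithelial cells and mark the border between the apical and basolateral membrane. Occludin, tricellulin and Marveld3 are multi-pass membrane proteins with a MARVEL domain, and F11r is an immunoglobulin-type adhesion molecule that recruits Par3. Beneath the membrane the ZO proteins, which carry PDZ domains, bind claudins and occludin and tie them to actin. Cingulin and paracingulin bind the ZO proteins, myosin and microtubules. Par3, together with Par6 and atypical protein kinase C, positions the junction and sets up apical polarity. In the gut these proteins form the barrier between lumen and tissue.

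Total counts ran from 22973245 to 31328415 per library, and levels are given as TMM-scaled CPM (counts as a share of the library total, per 1000000, scaled between libraries by edgeR). A gene is called changed here when its adjusted p in edgeR's quasi-likelihood test over 14714 genes was below 0.05. Gata6 itself measured 25.3, 23.2 and 28.0 CPM in Control replicates 1 to 3, against 14.3, 16.0 and 8.24 CPM in GATA6KO replicates 1 to 3 (log2 fold change -0.99, edgeR adjusted p = 0.0486), and it was called in 8 of 13 alternative analyses. Its call was lost when any Control library was left out (adjusted p up to 0.181) and when libraries were scaled by their totals alone (adjusted p = 0.0573). Between 714 (Marveld3) and 15456 (Cgnl1) counts per library stood behind the values of the members. The intestinal epithelial markers Epcam and Cdh1 were abundant in all 6 libraries, at 597 to 871 and 521 to 765 CPM. None of 7 fibroblast markers had more than 10 counts in any library, and their sum was 0.467 to 0.659 CPM in Control and 0.393 to 0.700 CPM in GATA6KO, with Lum at 0. The 6 immune markers summed to 11 to 14.3 CPM in Control and 3.04 to 5.52 CPM in GATA6KO. Nearly all of that sum was Cd68, a lysosomal protein of macrophages. The 5 endothelial markers summed to 4.56 to 5.44 CPM in Control and 5.80 to 6.84 CPM in GATA6KO. Most of that sum was Vwf and Tie1, named after their values were seen, and neither was called. Vwf had means of 2.31 CPM in Control and 4.28 CPM in GATA6KO, and Tie1 of 2.31 and 1.63 CPM. The share of mitochondrially encoded transcripts was 1.85% to 1.88% in Control and 2.07% to 2.84% in GATA6KO.

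ZO-1 mRNA fell in the GATA6KO organoids and Marveld3 mRNA rose. Tjp1 went from 455 ± 28.9 to 265 ± 42.6 CPM and Marveld3 from 32.1 ± 0.925 to 42.5 ± 2.66 CPM (SD, n = 3 each). These were the 2 members called of 9, 1 lower and 1 higher. Among all genes tested, 12.4% were called, 5.47% lower and 6.92% higher, so a count of 2 of 9 lies near that background. Of the other members, Ocln, F11r, Tjp3 and Cgn had lower values in all 3 GATA6KO libraries than in any Control library, and Cgnl1 had higher values in all 3, without passing the test. In all, groups did not overlap for 7 of 9 members, 5 lower and 2 higher, against 40.8% of all genes tested (20.5% lower and 20.3% higher). An unadjusted p below 0.05 was reached by 6 of 9 members and by 31.7% of all genes. The median log2 fold change of the 9 members was -0.25, and that of all genes was 0.02. The members were chosen with earlier results of these data known, so these contrasts with all genes are not independent evidence about the set. In bulk RNA, fewer cells of a type and less RNA per cell cannot be told apart.

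**Figure D1:**
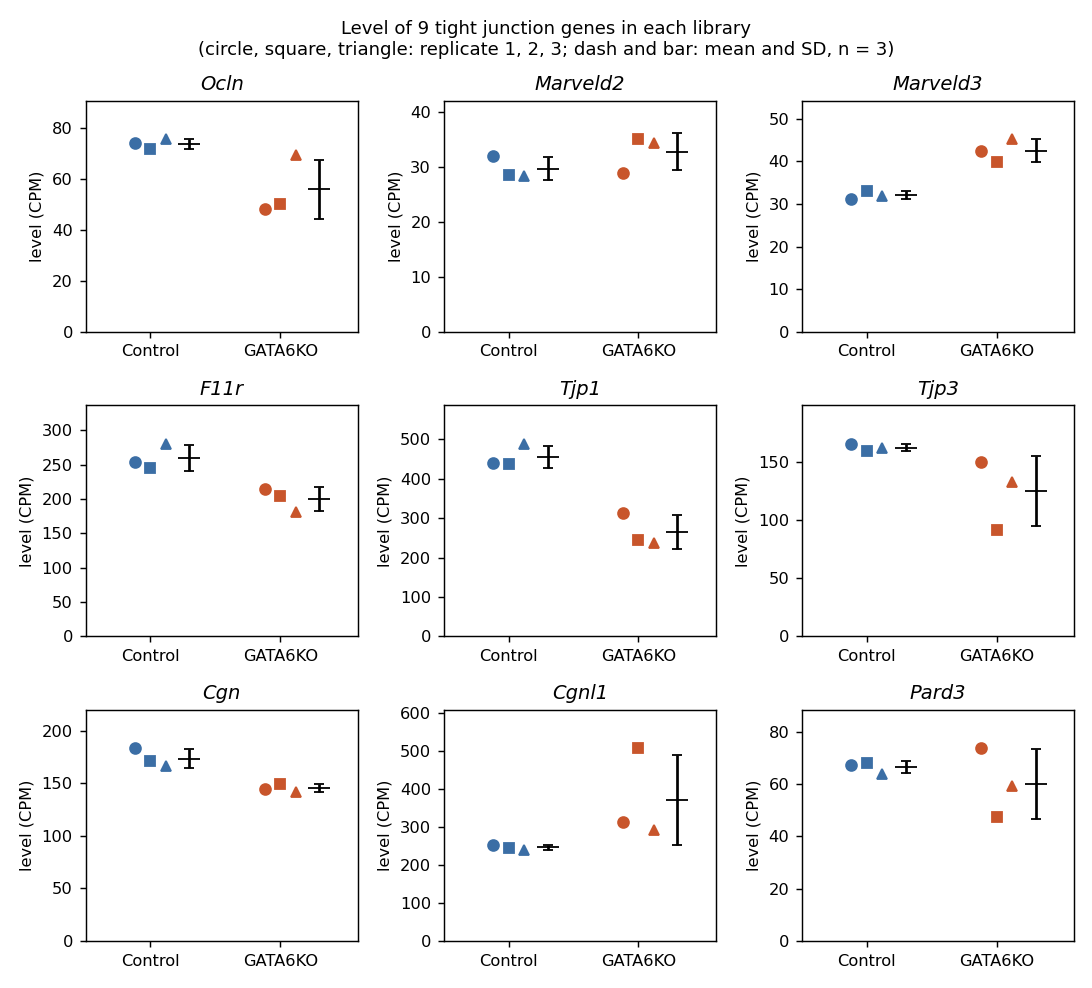
Level of each of the 9 genes in TMM-scaled CPM (vertical axes, each starting at 0) in the 3 Control (blue) and 3 GATA6KO (orange) libraries, with the mean and SD of each group (n = 3). Tjp1 sits at 436 to 488 CPM in Control, against 236 to 314 CPM in GATA6KO, and Cgnl1 replicate 2 of GATA6KO stands above the other libraries at 507 CPM.

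The bases before the RefSeq start sites of the members were read as well, since the targeted gene encodes a factor that binds the letters GATA. The tables gave 12 start sites for 8 members and none for Marveld3. The 250 bases before a start site were searched on both strands for 4 GATA words (the word AGATAA, the word AGATAG, the word TGATAA or the word TGATAG), for CAGGTG (an E-box bound by the epithelial repressors of the Snail and ZEB families) and for AACCGGTT (the grainyhead word). No word of 1 of these 3 kinds contains a word of another. A match is a description of the letters and not evidence that a factor binds. The sequences of 4 members follow, 5′ to 3′ on the gene's strand, with matched words in capitals. Tjp1 and Tjp3 are shown because they were the members with a GATA word, F11r for an E-box, and Cgnl1 as a member with higher GATA6KO values and no match. Coordinates are of GRCm38.p6, to which mm10 corresponds.
Tjp1, chr7:65371245-65371494, minus strand: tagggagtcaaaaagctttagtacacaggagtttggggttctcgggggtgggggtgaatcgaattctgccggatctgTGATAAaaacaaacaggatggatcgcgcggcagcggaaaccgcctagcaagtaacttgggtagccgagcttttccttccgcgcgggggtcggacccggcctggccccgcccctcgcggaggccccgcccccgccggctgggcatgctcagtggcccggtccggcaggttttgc
Tjp3, chr10:81291582-81291831, minus strand: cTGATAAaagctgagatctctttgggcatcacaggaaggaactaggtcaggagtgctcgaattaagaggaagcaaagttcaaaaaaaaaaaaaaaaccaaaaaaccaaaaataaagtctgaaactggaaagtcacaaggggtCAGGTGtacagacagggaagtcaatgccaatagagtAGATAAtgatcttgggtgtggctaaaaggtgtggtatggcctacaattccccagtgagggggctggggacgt
F11r, chr1:171437311-171437560, plus strand: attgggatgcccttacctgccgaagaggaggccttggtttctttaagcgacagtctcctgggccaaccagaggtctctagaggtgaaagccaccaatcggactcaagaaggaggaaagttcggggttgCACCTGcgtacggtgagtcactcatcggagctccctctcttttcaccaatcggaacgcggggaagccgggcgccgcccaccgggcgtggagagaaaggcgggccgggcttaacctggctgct
Cgnl1, chr9:71771603-71771852, minus strand: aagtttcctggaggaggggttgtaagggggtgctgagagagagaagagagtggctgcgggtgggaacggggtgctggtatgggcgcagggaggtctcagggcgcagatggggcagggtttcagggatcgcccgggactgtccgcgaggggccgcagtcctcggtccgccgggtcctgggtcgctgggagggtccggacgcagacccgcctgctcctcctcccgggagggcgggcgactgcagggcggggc

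The Tjp1 sequence held 1 GATA word, TGATAA, whose 5′ base lay 173 bases before the start site. The Tjp3 sequence held TGATAA at 249 and AGATAA at 72 bases before the start, and CAGGTG at 108 bases before it. In F11r the E-box lay on the opposite strand, printed above as CACCTG, and the first printed base lay 122 bases before the start. At least 1 GATA word was found before 26.5% of 32851 RefSeq start sites and the E-box before 17.2%, so both are common. Ocln, F11r and Cgn, which also had lower values in all GATA6KO libraries, had no GATA word. A link between these words and the levels was not tested. The Tjp1 start site lay 156537 bases inside the gene as GENCODE M21 draws it, with 1 of its 7 transcripts starting within 100 bases. The second start sites of Ocln and Pard3 had 2 and 3 E-boxes before them, and the second of Tjp3 had 1. No searched word was found before the start sites of Marveld2, Cgn and Cgnl1, and the grainyhead word was found before no member's start and before 0.116% of all.

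Among the membrane proteins, Marveld3 was the member that rose. Marveld3 (ENSMUSG00000001672, chromosome 8, 109947914 to 109962203) restrains JNK signalling as well as taking part in the junction. It measured 31.3, 33.1 and 31.9 CPM in Control replicates 1 to 3, against 42.5, 39.9 and 45.2 CPM in GATA6KO replicates 1 to 3. All 3 GATA6KO libraries lay above all 3 Control libraries. The log2 fold change was 0.40 with an SE of 0.09 (edgeR adjusted p = 0.0377). Over the 3 against 3 values alone, a 2-sided exact permutation test gave p = 0.1, the smallest possible. Marveld3 was called in 7 of 13 alternative analyses. Among others, it lost its call when Control replicate 1, 2 or 3 was left out (adjusted p = 0.157, 0.160 and 0.181), without GATA6KO replicate 3 (adjusted p = 0.0588), or with no filter on low counts (adjusted p = 0.0707), while the log2 fold change stayed between 0.36 and 0.48.

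Ocln (ENSMUSG00000021638, chromosome 13, 100496507 to 100552718), the MARVEL protein by which tight junctions are most often stained, measured 73.8, 71.7 and 75.4 CPM in Control, against 48.1, 50.2 and 69.2 CPM in GATA6KO. GATA6KO replicates 1 and 2 were at 0.654 and 0.682 of the Control mean, and replicate 3 was at 0.940, close to the Control range. The log2 fold change was -0.40 with an SE of 0.15 (edgeR adjusted p = 0.126). Of 13 alternatives 1 called it: without GATA6KO replicate 3 the log2 fold change was -0.58 (adjusted p = 0.0118).

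Marveld2 (ENSMUSG00000021636, chromosome 13, 100595957 to 100616971) encodes tricellulin, which seals the corners where several cells meet. It measured 32.1, 28.5 and 28.5 CPM in Control, against 29.0, 35.1 and 34.4 CPM in GATA6KO, so the groups overlapped (log2 fold change 0.15, SE 0.12, edgeR adjusted p = 0.433). The gene lies 43239 bases from Ocln on the same strand. These 2 neighbours had log2 fold changes of opposite sign, neither of them called.

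F11r (ENSMUSG00000038235, chromosome 1, 171437535 to 171464603) was the most abundant member per length. It measured 254, 245 and 280 CPM in Control, against 214, 204 and 181 CPM in GATA6KO, and the groups did not overlap. Its log2 fold change was -0.38 with an SE of 0.10 (edgeR adjusted p = 0.0592). It was called in 2 of 13 alternatives, without GATA6KO replicate 1 (adjusted p = 0.0283) and by DESeq2 (adjusted p = 0.00798). Those fits called 4360 and 3238 genes in all, against 1823 in the reported test.

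Among the scaffold and plaque proteins, Tjp1 fell and was the lowest of all 9 members relative to Control. Tjp1 (ENSMUSG00000030516, chromosome 7, 65296165 to 65527781) encodes ZO-1, a scaffold that organises claudins and the actin belt. It measured 441, 436 and 488 CPM in Control replicates 1 to 3, against 314, 244 and 236 CPM in GATA6KO replicates 1 to 3. The libraries of GATA6KO held 0.689, 0.536 and 0.520 of the mean Control level, and the groups did not overlap. The log2 fold change was -0.78 with an SE of 0.13 (edgeR adjusted p = 0.0153, exact permutation p = 0.1). Tjp1 was called in 10 of 13 alternative analyses. The exceptions left out a Control library: adjusted p = 0.0667, 0.0617 and 0.0795 when that was replicate 1, 2 or 3. The log2 fold changes were then -0.80, -0.83 and -0.74.

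Tjp3 (ENSMUSG00000034917, chromosome 10, 81273207 to 81291581) encodes ZO-3, the ZO protein restricted to epithelia. It measured 166, 159 and 163 CPM in Control, against 150, 91.5 and 133 CPM in GATA6KO (log2 fold change -0.38, SE 0.18, edgeR adjusted p = 0.196). GATA6KO replicate 2 was far below the other GATA6KO libraries, and without it the log2 fold change was -0.20. The 3′ end of Tjp3 overlaps the gene Apba3 on the opposite strand, and whether the counting used strand is not given in the sources used here.

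Cgn (ENSMUSG00000068876, chromosome 3, 94760069 to 94786492), a coiled-coil plaque protein that holds RhoA activators at the junction, measured 183, 171 and 166 CPM in Control. In GATA6KO it measured 145, 150 and 142 CPM, a narrow band below all Control libraries. The log2 fold change was -0.25 with an SE of 0.08 (edgeR adjusted p = 0.0883). Of 13 alternatives only DESeq2 called it (adjusted p = 0.0166), a fit that called 3238 genes in all against 1823 in the reported test.

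Cgnl1 (ENSMUSG00000032232, chromosome 9, 71626509 to 71771602), the paralog of Cgn, had its values on the other side of Control. It measured 254, 245 and 240 CPM in Control, against 313, 507 and 293 CPM in GATA6KO. The groups did not overlap, but GATA6KO replicate 2 stood at 2.06 times the Control mean and replicates 1 and 3 at 1.27 and 1.19. The log2 fold change was 0.59 with an SE of 0.21 (edgeR adjusted p = 0.112) and was 0.30 without that library. Of 13 alternatives only DESeq2, with its larger number of called genes, called it (adjusted p = 0.0455).

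Pard3 (ENSMUSG00000025812, chromosome 8, 127063893 to 127612286), the scaffold of the Par complex, measured 67.5, 68.3 and 64.1 CPM in Control. In GATA6KO it measured 73.7, 47.2 and 59.2 CPM, on both sides of Control. Its log2 fold change was -0.15 with an SE of 0.16 (edgeR adjusted p = 0.567), and it was -0.00303 without GATA6KO replicate 2 (adjusted p = 0.990).

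**Figure D2:**
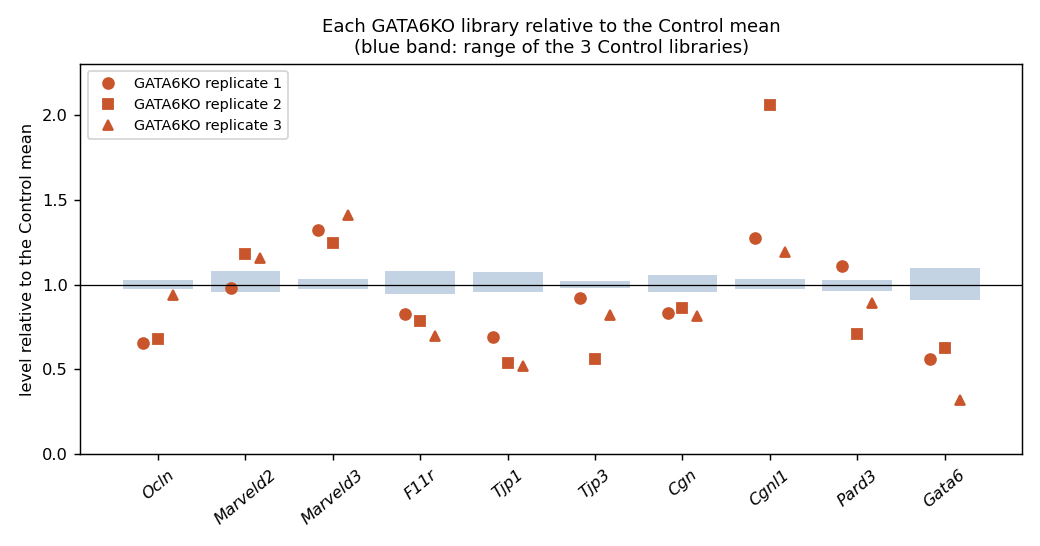
Level of each of the 9 genes and of Gata6 in each GATA6KO library relative to the Control mean (vertical axis, no unit; circle, square and triangle for replicates 1, 2 and 3), with the range of the 3 Control libraries as a blue band. Replicate 2 was the lowest GATA6KO library for Tjp3 and Pard3 (0.562 and 0.709) and the highest for Cgnl1 (2.06), while Gata6 stood at 0.560, 0.629 and 0.323.

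The GATA6KO libraries differed more among themselves than the Control libraries did. The SD of log2 CPM was larger in GATA6KO for 8 of 9 members, Cgn being the exception, as it was for 86.1% of all genes tested. The median SD of the members was 0.0487 in Control and 0.223 in GATA6KO. The coefficient of variation in GATA6KO ran from 2.76% for Cgn to 31.8% for Cgnl1. The order of the 3 libraries differed between members: replicate 1 was lowest for Ocln, replicate 2 for Tjp3 and Pard3, and replicate 3 for F11r, Tjp1 and Cgn. In GATA6KO replicate 2 chromosome 14 was low (median log2 ratio of its genes over Control -0.90), and no member lies on that chromosome. On the chromosomes that carry the members, the same median lay between -0.13 (chromosome 9, where Cgnl1 lies, in replicate 2) and 0.08.

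Per kilobase of merged exons (GENCODE M21), F11r was the most abundant member in Control at 97.4 ± 6.92 CPM per kilobase. It was followed by Tjp1 at 58.3 ± 3.69, Tjp3 at 43.8 ± 0.878, Cgnl1 at 31.4 ± 0.895 and Cgn at 28.8 ± 1.47. Ocln at 17.4 ± 0.445, Marveld3 at 9.77 ± 0.282, Marveld2 at 8.78 ± 0.620 and Pard3 at 4.59 ± 0.154 CPM per kilobase closed the order (SD, n = 3 each). No neighbours in this order overlapped between libraries in Control. In GATA6KO, Cgnl1 stood second at 47.3 ± 15.0 CPM per kilobase, ahead of Tjp1 at 33.9 ± 5.45 and Tjp3 at 33.7 ± 8.15. Of these, Cgnl1 overlapped Tjp1, Tjp1 overlapped Tjp3 and Tjp3 overlapped Cgn, so the order within that group was not resolved. Ocln at 13.2 ± 2.75 and Marveld3 at 12.9 ± 0.811 CPM per kilobase also overlapped. With the length of the longest coding transcript instead, Pard3 stood above Marveld2 in Control, and Cgnl1 and Cgn overlapped there.

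Ratios of related genes within a library do not depend on the scaling between libraries. The ratios of CPM per kilobase are given for 3 pairs of members, chosen after the values had been seen. Paracingulin to cingulin (Cgnl1/Cgn) was 1.06, 1.10 and 1.11 in Control and 1.66, 2.60 and 1.59 in GATA6KO. All GATA6KO libraries were above all Control libraries. Marveld3/Ocln was 0.545, 0.594 and 0.544 in Control and 1.13, 1.02 and 0.840 in GATA6KO. Marveld2/Ocln was 0.543, 0.496 and 0.472 in Control and 0.752, 0.872 and 0.621 in GATA6KO. In both MARVEL pairs all 3 GATA6KO libraries were above Control. For these 3 pairs a 2-sided exact permutation test gave p = 0.1, the smallest that 3 against 3 values allow (0.125 when adjusted over the 5 ratios computed), so the design cannot reach 0.05. In all GATA6KO libraries Cgnl1 and Marveld3 lay above Control, and Cgn and Ocln below it. The separation of Cgnl1/Cgn and Marveld3/Ocln was therefore fixed in advance and adds no support to the values of the single genes.

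**Figure D3:**
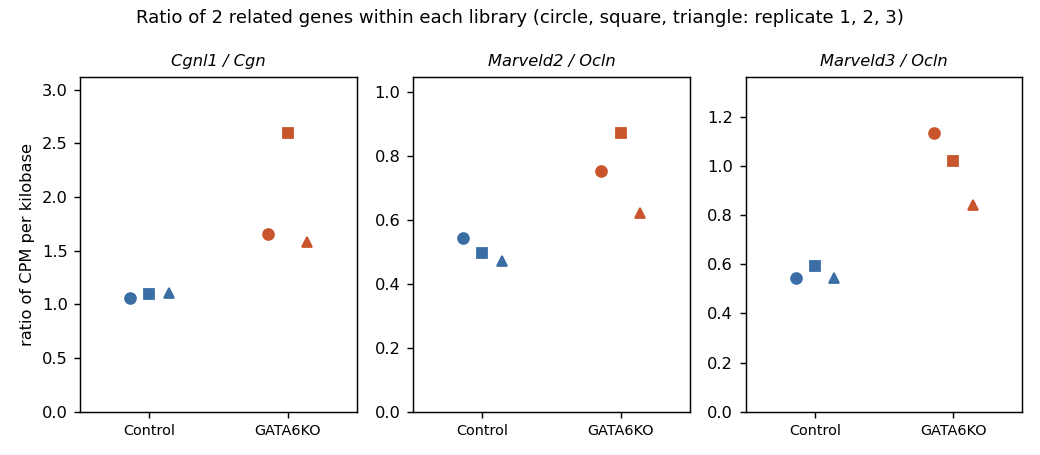
Ratio of CPM per kilobase of 2 related genes within each library (vertical axes, no unit, each starting at 0) in Control (blue) and GATA6KO (orange). The groups lie apart for Cgnl1/Cgn, Marveld2/Ocln and Marveld3/Ocln, and GATA6KO replicate 2 is the highest for Cgnl1/Cgn, at 2.60.

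Other genes of the junction and of apical polarity were read from the same fit, in 4 lists with 53 genes, of which 45 were tested. Of these 45, 6 fell and 2 rose, with a median log2 fold change of -0.13. The called share here and in each list below is to be read against 12.4% of all genes, 5.47% lower and 6.92% higher.

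Of 15 polarity genes tested, 3 fell and 0 rose. Pard6b, a Par6 protein that joins Par3 to atypical protein kinase C, measured 53.2, 56.5 and 57.8 CPM in Control, against 36.6, 33.3 and 27.8 CPM in GATA6KO. It had a log2 fold change of -0.78 (SE 0.12, edgeR adjusted p = 0.0118). Crb3, the epithelial Crumbs protein of the apical membrane, measured 59.8, 63.3 and 68.5 CPM in Control, against 48.4, 44.7 and 36.5 CPM in GATA6KO (log2 fold change -0.56, SE 0.13, edgeR adjusted p = 0.0352). For both genes every GATA6KO library lay below every Control library. The third was Pard3b, a weakly expressed paralog of Pard3 (1.15 and 0.365 CPM, edgeR adjusted p = 0.0467), named here after its values were seen. It was called in 2 of 12 alternatives and in none that left out a library. Prkci, the atypical kinase itself, measured 148 ± 1.06 and 139 ± 9.60 CPM (log2 fold change -0.10, edgeR adjusted p = 0.470). Crb1 and Crb2 were at 0 in all libraries.

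Of 12 other scaffold and plaque genes tested, 2 fell and 1 rose. Magi3, a PDZ scaffold, fell from 107 ± 7.62 CPM in Control to 76.5 ± 8.49 CPM (log2 fold change -0.48, SE 0.11, edgeR adjusted p = 0.0370). Mpp5, which encodes Pals1, the link between Crumbs and Patj, fell from 96.3 ± 6.76 CPM in Control to 69.9 ± 6.78 CPM (log2 fold change -0.46, SE 0.11, edgeR adjusted p = 0.0372). Amot, angiomotin, a scaffold that binds Patj and YAP, rose from 74.6 ± 3.11 CPM in Control to 100.2 ± 10.6 CPM (log2 fold change 0.43, SE 0.10, edgeR adjusted p = 0.0425).

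Of 6 other junction membrane proteins tested, edgeR called 0, and 2 had an unadjusted p below 0.05, against 31.7% of all genes. DESeq2 and limma-voom each called 2 lower, where of all 14714 genes they called 1529 and 896 lower. Those 2, named after their values were seen, were the angulin Ildr1 (86.6 CPM in Control, 47.4 CPM in GATA6KO, edgeR adjusted p = 0.0603) and the adhesion molecule Esam (1.75 and 0.288 CPM, edgeR adjusted p = 0.0518). Lsr, the angulin that brings tricellulin to cell corners, measured 172 ± 5.29 and 171 ± 14.3 CPM (log2 fold change -0.01, edgeR adjusted p = 0.949). Cxadr, an adhesion molecule that binds ZO-1 and serves as a virus receptor, measured 143 ± 9.81 and 119 ± 19.5 CPM (log2 fold change -0.26, edgeR adjusted p = 0.244). Of 12 actomyosin regulators and linked signalling genes tested, 1 rose and 1 fell. Mylk, the kinase of myosin light chain that loosens tight junctions, rose from 63.1 ± 0.543 CPM in Control to 115 ± 33.0 CPM (log2 fold change 0.86, SE 0.20, edgeR adjusted p = 0.0403). Vasp, an actin elongation factor found at junctions, fell from 367 ± 3.60 CPM in Control to 266 ± 20.3 CPM (log2 fold change -0.46, SE 0.09, edgeR adjusted p = 0.0233). None of these 7 genes, from Pard6b to Vasp and leaving Pard3b aside, was called once a Control library was left out, with adjusted p from 0.0556 (Pard6b) to 0.191 (Amot). Further calls were lost for Magi3 and Mpp5 without GATA6KO replicate 2 or 3 (0.0574 and 0.0725, 0.0507 and 0.0665), for Amot without replicate 3 (0.0603) and for Mylk without replicate 1 (0.0509) and by limma-voom (0.0505).

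**Figure D4:**
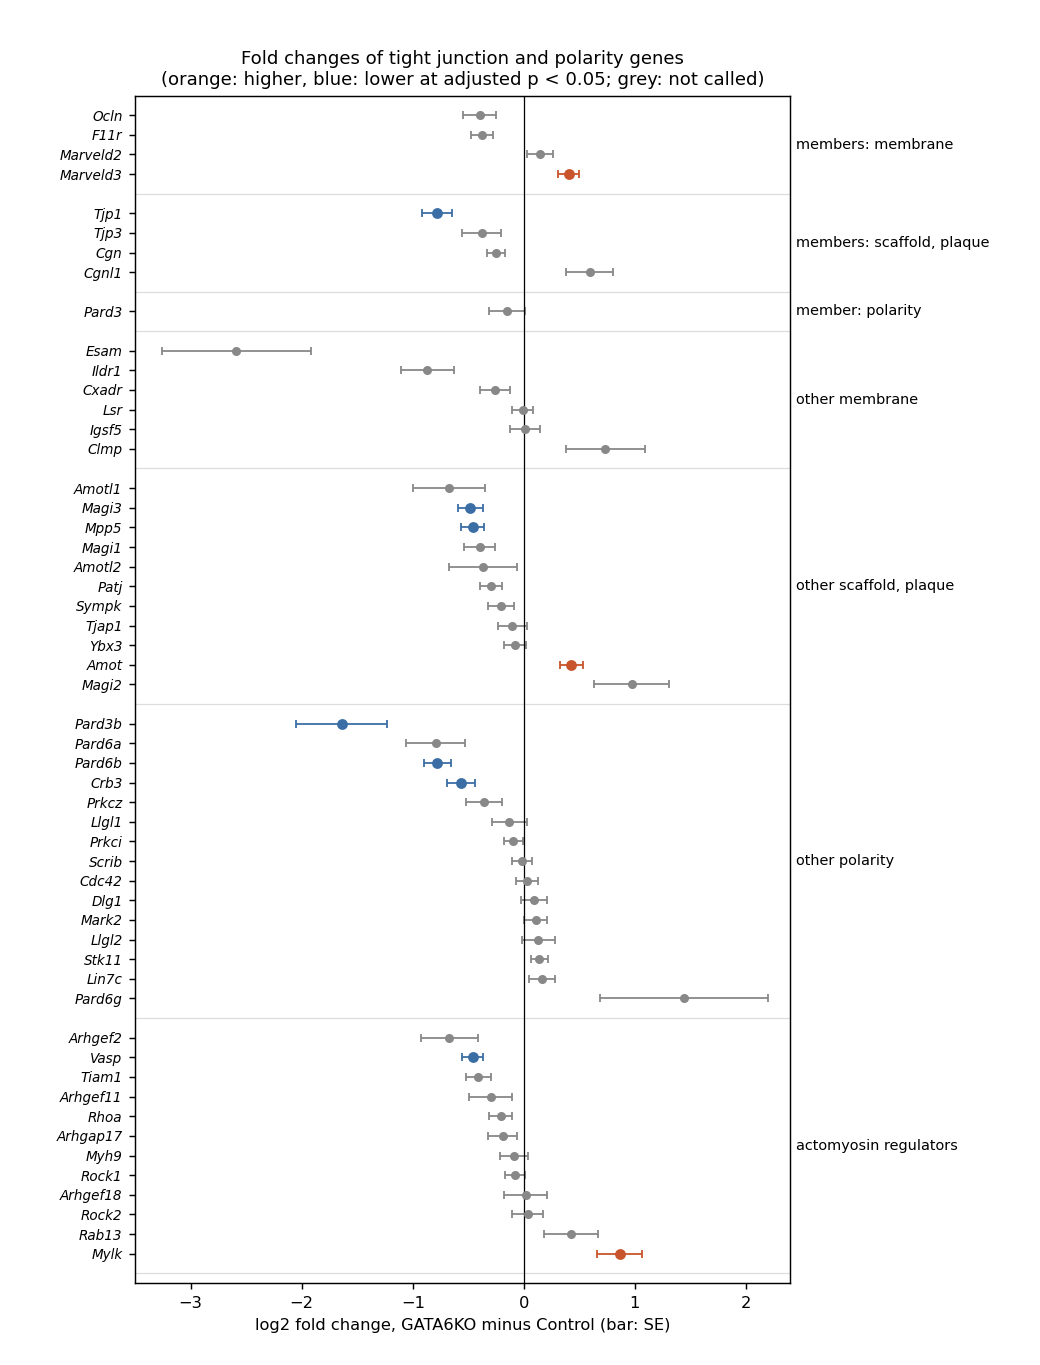
Log2 fold change of GATA6KO minus Control with its SE (horizontal axis) for the 9 members and 44 of the 45 tested genes of 4 other lists, grouped by role. Orange marks genes called higher and blue genes called lower by edgeR. Among the members Tjp1 (-0.78) is called lower and Marveld3 (0.40) higher.

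Markers of the intestinal epithelium had lower mean values beside these genes. All 10 markers had a log2 fold change below 0, with a median of -0.45, against 48.1% of all genes tested below 0. For Cdx1, named after its values were seen, this rested on GATA6KO replicate 2. Its GATA6KO replicates 1 to 3 stood at 1.22, 0.0909 and 1.12 of the Control mean (edgeR adjusted p = 0.817). Of the 10, 3 were called lower, against 5.47% of all genes. These were Cdh1, Krt8 and Krt18, of which the keratins of simple epithelia, Krt8 and Krt18, are named after their values were seen (log2 fold changes -0.55 and -0.84). Cdh1, which encodes the adherens junction cadherin, measured 739 ± 22.4 CPM in Control, against 545 ± 26.4 CPM in GATA6KO (log2 fold change -0.44, edgeR adjusted p = 0.0246). Without Control replicate 2 or 3, none of these 3 markers was called, at adjusted p of 0.0565 (Krt18) to 0.124 (Krt8), and without Control replicate 1 only Krt18 was. The sum of the 10 markers was 10579 to 11499 CPM in Control, against 6954 to 8321 CPM in GATA6KO. Most of that sum was Krt8 (means of 3272 and 2242 CPM) and Krt19 (3393 and 2608 CPM), the second also named after its values were seen. The sum of the 9 members was 1457 to 1537 CPM in Control, against 1194 to 1368 CPM in GATA6KO. The part of these markers, of Cd68 and of the mitochondrial share in the junction results was not tested.

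**Figure D5:**
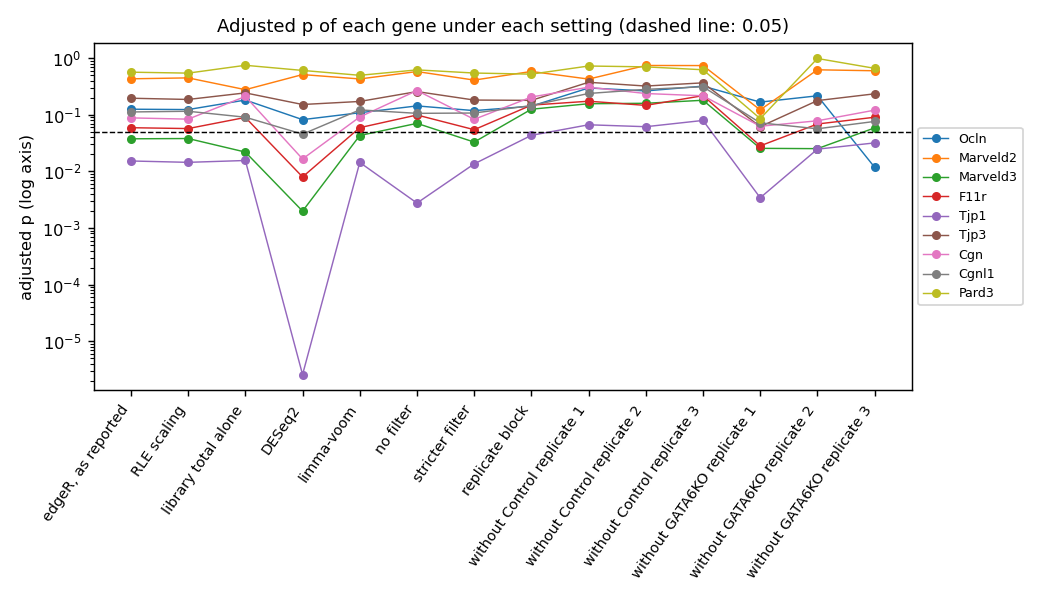
Adjusted p of each of the 9 genes (vertical log axis) under the reported edgeR test and the 13 alternatives (horizontal axis), with a dashed line at 0.05. Tjp1 is above the line only in the 3 settings without a Control library, and Marveld2, Tjp3 and Pard3 are above it in all settings.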

How the data were processed

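Poly(A)-selected RNA of 6 libraries was prepared with a strand-marking kit, per the labels' protocols. The authors deposited estimated counts per gene as whole numbers, not scaled between libraries. Per the submitters' processing notes, the tools and builds include Salmon 1.3.0 and mm10, with no stated role. For the annotation, rounding and strand setting, nothing is given in the sources used here. Of 54418 identifiers, 54166 matched GENCODE M21. No 2 libraries held the same values (at least 23754 genes differed).

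Genes were kept by edgeR's filterByExpr (10 counts at the median library in 3 libraries, 15 in total), scaled by TMM and tested with glmQLFit (robust) and glmQLFTest (no block), with Benjamini-Hochberg adjustment over 14714 genes and a threshold of 0.05. In all, 1823 genes were called. The SE is the log2 fold change divided by the square root of F. Versions were DESeq2 1.42.0, limma 3.58.1, edgeR 4.0.16 and R 4.3.3. The script was tested on simulated data with the same spread setting in both groups, so the larger spread in GATA6KO was not covered. For medians per chromosome, genes under 5 CPM in Control were left out and 0.1 CPM was added. Igsf5 had 2 identifiers, of which the one with more counts was used.

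The members and lists were chosen with earlier results of these data known. Named were all members, Gata6, called list genes reaching 5 CPM in a group (at most 4 per list), and Prkci, Pard6b, Crb3, Lsr and Cxadr; of the marker lists, Epcam, Cdh1 and genes at 0. Other names are said to follow their values; Cd68 and Apba3 do too. Some genes of the lists and 2 of 5 ratios are not reported here. Alternatives were RLE scaling, scaling to the library total, limma-voom, DESeq2, no filter, a stricter filter (1 CPM in every library of a group), a replicate block, and fits that left out 1 library each.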

Additional observations from a re-analysis of the deposited data

How the results depend on the processing

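All 117 values of the 9 members under 13 alternatives kept their direction, and 103 kept their side of the threshold. DESeq2 called 3238 genes and 5 members against 1823 and 2 in the reported test, and without a filter 1 member (Tjp1) was called. Leaving out 1 library each gave 332 to 4360 called genes, 0 to 3 members and 0 to 17 genes of the other lists. The lowest count of genes was without Control replicate 3 and the highest without GATA6KO replicate 1. Without Control replicate 1, 2 or 3, edgeR called 0 members, where 3, 3 and 4 had an unadjusted p below 0.05, and 0 of the other lists, where 12, 13 and 11 did. Without Control replicate 1, 3375 of all 15243 genes tested had such a p, and 46 genes of the other lists were tested. The unadjusted counts are therefore not read as a result about the junction genes. The cause of the shifts in called genes between these fits was not tested. The 3 ratios given kept their direction without any 1 library, which for Cgnl1/Cgn and Marveld3/Ocln follows from the values of the single genes. No pairing by replicate number was visible: deviations of same-numbered libraries correlated at -0.0103, 0.0744 and -0.0921, and not every library correlated best with its own number. With 3 libraries per group these correlations cannot settle whether same-numbered libraries were prepared together. With the replicate number as a block, 827 genes were called, 1 member (Tjp1) and 1 gene of the other lists (Pard6b). Marveld3 (adjusted p = 0.126), Gata6 (0.0915), Cdh1 (0.0909) and Krt8 (0.0815) were not called with it. A member not called is not shown to be unchanged.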
